A study of Mus musculus with 24 samples.

Results

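The keratin genes are the rows of the deposited count table whose symbol is Krt followed by a number and at most 1 letter, and 47 of the 27368 genes in that table met this rule. RNA was sequenced from 24 tumours of SCC7, a mouse squamous carcinoma line implanted beneath the skin of female C3H mice aged 6 to 8 weeks, about 1000000 cells per mouse, with treatment from a mean volume near 300.0 cubic millimetres. NC cells held a vector without insert, and OE cells had raised levels of the microRNA miR-21-5p. Tumours received sham treatment, X-rays (IR, 8 Gy a day on 3 days), the PARP inhibitor olaparib (50 mg/kg, 2 h before irradiation) or both, which gives 8 groups of 3: NC sham, OE sham, NC olaparib, OE olaparib, NC IR, OE IR, NC IR+olaparib and OE IR+olaparib. Groups were taken from the letters of each tumour's coded identifier, and a tumour is named by that identifier: E stands for OE, S for sham, I for IR and O for olaparib, followed by the animal number. The written treatment and batch labels name the same group for 5 tumours and a different one for 19, and the cell type label reads OE for all 24. Labels do not say whether the OE or NC line was a clone or a pool, and all groups are whole tumours that also hold host cells.

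Keratins are the intermediate filament proteins of epithelial cells, and each filament is built from pairs of a type I and a type II keratin. Dividing basal cells of stratified epithelium make Krt5 with Krt14, cells leaving that layer switch to Krt1 with Krt10, and Krt6a, Krt6b, Krt16 and Krt17 appear in wounded or stressed epidermis. Simple, one-layered epithelia use Krt8 with Krt18, joined in some ducts and glands by Krt7, Krt19 and Krt20, and squamous carcinomas often hold both kinds. In RefSeq on GRCm38.p6, 46 of the 47 genes had a position, 23 on chromosome 11 between bases 99232761 and 100269951 and 23 on chromosome 15 between bases 101348315 and 102032026. Krt8 (chr15:101996711-102004342) and Krt18 (chr15:102028216-102032026) are neighbours separated by 23873 bases.

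Libraries held 37099055 to 40004502 counted reads. Cdkn1a, a p53 target that stops the cell cycle, stood at 267.6 ± 45.96 CPM (counts scaled to 1000000 per tumour; SD, n = 12) in unirradiated and 690.0 ± 121.8 CPM (SD, n = 12) in irradiated tumours by code, a rise of 1.36 ± 0.12 on the log2 scale (SE; edgeR quasi-likelihood test, Benjamini-Hochberg adjusted p = 1.62e-06). Mki67, a proliferation marker, moved by -1.27 ± 0.29 on the log2 scale (SE; edgeR, adjusted p = 0.00303). The library labelled EIO-744 stood apart: the summed level of 10 fibroblast genes was 133200 CPM there and 3267 to 7940 CPM in the other 23. Averaged radiation changes of keratins that moved by over 1.5 times without this library are given both ways.

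Of the 47 keratins, 21 passed the filter on low counts and were tested among 16560 genes: all 3 of the basal layer (Krt5, Krt14, Krt15), all 4 suprabasal ones (Krt1, Krt2, Krt10, Krt77), all 4 of wound and stress, all 5 of simple epithelium (Krt7, Krt8, Krt18, Krt19, Krt20), 4 of 8 of other stratified epithelia (Krt4, Krt78, Krt79, Krt80) and Krt23. None of the 7 keratins of the inner root sheath and companion layer and none of the 12 of the hair shaft passed. The 26 untested keratins had 1 to 120 counts each over all tumours, 20 of them fewer than 10, and none exceeded 1.55 CPM in any tumour. Keratins together took 0.0248% to 0.152% of all counts, with a median of 0.0838%. Per kilobase of annotated exon, the median level over 24 tumours was 239.9 CPM for Krt8 and 185.3 CPM for Krt18, against 1.48 CPM for Krt16, 1.17 for Krt80, 0.967 for Krt10, 0.512 for Krt14 and 0.314 for Krt5. On the same scale the other markers of epithelium were unequal: Itgb4, the hemidesmosome integrin, had 39.1 CPM, Cdh1 (E-cadherin) 0.568, Epcam 0.220 and Trp63, the transcription factor of basal squamous cells, 0.0395, while Vim, the filament of mesenchymal cells, had 1419. The keratins that define squamous epithelium were thus low in most of these tumours, which are called squamous after the cell line.

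The 5′ ends of 5 keratin genes are shown because Krt8 and Krt18 carried most of the counts, Krt5 and Krt10 stand for the basal and suprabasal programmes, and Krt7 differed with radiation. Each run gives 120 bases before and 30 bases after the RefSeq start on GRCm38.p6, on the coding strand, with capitals for any match to a searched motif.
Krt8: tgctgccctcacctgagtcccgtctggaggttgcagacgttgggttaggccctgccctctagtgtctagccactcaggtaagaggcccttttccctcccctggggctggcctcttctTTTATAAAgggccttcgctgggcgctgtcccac
Krt18: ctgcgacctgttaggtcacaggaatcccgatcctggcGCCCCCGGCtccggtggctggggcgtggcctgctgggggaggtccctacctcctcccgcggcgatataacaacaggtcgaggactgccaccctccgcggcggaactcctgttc
Krt5: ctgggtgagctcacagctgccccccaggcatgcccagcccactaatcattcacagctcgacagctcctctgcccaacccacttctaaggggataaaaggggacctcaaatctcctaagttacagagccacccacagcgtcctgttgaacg
Krt10: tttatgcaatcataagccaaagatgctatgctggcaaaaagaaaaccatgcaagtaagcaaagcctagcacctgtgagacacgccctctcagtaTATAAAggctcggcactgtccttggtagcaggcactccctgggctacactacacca
Krt7: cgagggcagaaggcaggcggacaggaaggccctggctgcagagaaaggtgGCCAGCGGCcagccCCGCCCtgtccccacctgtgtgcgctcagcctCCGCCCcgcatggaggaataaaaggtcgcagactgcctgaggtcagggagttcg
They lie at chr15:102004313-102004462 on the minus strand (Krt8), chr15:102028096-102028245 on the plus strand (Krt18), chr15:101712876-101713025 on the minus strand (Krt5), chr11:99389335-99389484 on the minus strand (Krt10) and chr15:101412283-101412432 on the plus strand (Krt7). The motifs were the TATA box TATAAA, the GC box GGGCGG, the AP-1 site TGANTCA and the AP-2 site GCCNNNGGC, searched on both strands in windows of 300.0 bases. A TATA box matched 17 of 34 windows of 33 keratin genes and 13.6% of all 32851 windows, the GC box 2 of 34 and 35.7%, the AP-1 site 2 of 34 and 7.81%, and the AP-2 site 6 of 34 and 16.6%. Counting from the start, the TATA box began at base -26 in Krt10, and in Krt8 it fell on both strands at the annotated start itself, at bases -3 and -1. Krt7 held 4 GC boxes, the 2 nearest at bases -56 and -24, and 2 AP-2 sites, at -146 (overlapping a GC box) and -70. Krt18 held 1 AP-2 site, at -83, and none of these letters were in the Krt5 window.

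Krt8 and Krt18, the simple epithelial pair, made up most of the keratin counts in 21 of 24 tumours and were nearly absent from 1. In 23 tumours the pair took 22.12% to 99.22% of the keratin counts, with a median of 97.25%. EIO-744 held 9 counts of Krt8 and 10 of Krt18 among 16059 keratin counts, a share of 0.118%. Low shares were also seen in I-736 (22.12%) and IO-731 (31.31%), where Krt8 and Krt18 were present but epidermal keratins were high.

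**Figure D1:**
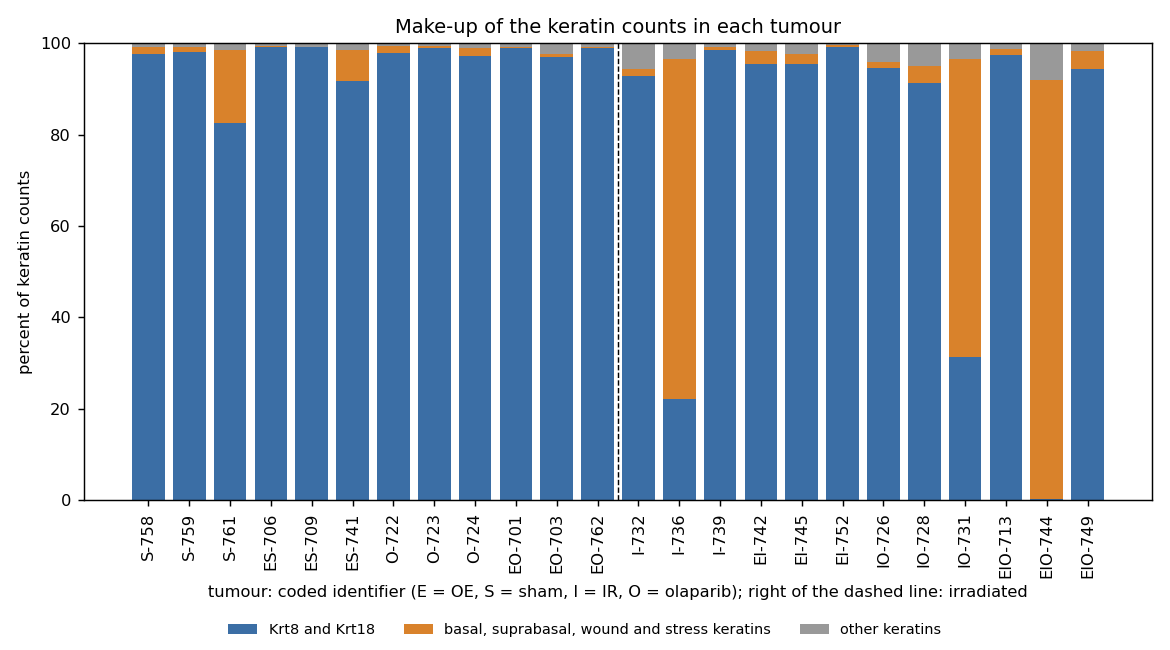
Share of keratin counts in each tumour (vertical axis, percent; 1 bar per tumour, irradiated tumours by code to the right of the dashed line) taken by Krt8 and Krt18, by the basal, suprabasal, wound and stress keratins, and by other keratins. The blue part is 0.118% of the bar for EIO-744, 22.12% for I-736 and 31.31% for IO-731.

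Krt8 (type II) stood at 737, 767 and 729.6 CPM in the 3 NC sham tumours and at 487, 476 and 524 CPM in OE sham, in order of animal number as in all such lists. With olaparib alone the levels were 887, 915 and 421 CPM in NC and 609, 269.7 and 531 CPM in OE. With radiation they were 185, 141 and 496 CPM in NC and 344, 350.3 and 743 CPM in OE. Radiation with olaparib gave 173, 223 and 217 CPM in NC and 463, 0.285 and 374 CPM in OE. Of the 12 irradiated tumours 6 lay below every unirradiated one, and EI-752 lay within the upper part of the unirradiated range.

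Krt18, the type I partner, stood at 545, 485 and 589 CPM in NC sham and 343, 288 and 356 CPM in OE sham. Olaparib alone gave 534, 444 and 244 CPM in NC and 323, 147 and 402 CPM in OE. Irradiated NC tumours had 165, 35.0 and 424 CPM without and 60.3, 110.2 and 90.9 CPM with olaparib. Irradiated OE tumours had 149, 89.1 and 459 CPM without and 147, 0.317 and 118 CPM with olaparib. Here 8 of 12 irradiated tumours lay below every unirradiated one, and I-739 and EI-752 were the 2 irradiated tumours above the unirradiated median of 379 CPM.

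Over the 4 strata (cell line by olaparib) Krt18 fell with radiation by 1.46 ± 0.51 on the log2 scale (SE, edgeR adjusted p = 0.0321). Krt8 moved by -1.02 ± 0.50 on that scale (edgeR adjusted p = 0.109), which became -0.89 ± 0.21 (adjusted p = 0.00354) without EIO-744, while Krt18 then had -1.32 ± 0.33 (adjusted p = 0.00490). In that fit the fall of Krt8 was seen in NC (-1.47 ± 0.41, and -1.88 ± 0.42 under olaparib). In OE its changes were -0.05 ± 0.41 and -0.18 ± 0.46. The Krt18 call was kept in 15 of 24 fits that each left out 1 tumour, and the Krt8 call was made in 1 of them. In whole tumours, fewer cells that make a keratin and less of its RNA per cell cannot be told apart. Beside this fall, 7 of 8 proliferation genes were lower and 7 of 8 macrophage genes higher in irradiated tumours. Of all genes 17.5% were lower and 21.7% higher, and lists of other cell types, given below, also moved. The part of these in the keratin result was not tested. The macrophage sum ran from 4755 to 13400 CPM in unirradiated and from 2609 to 18670 CPM in irradiated tumours.

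**Figure D2:**
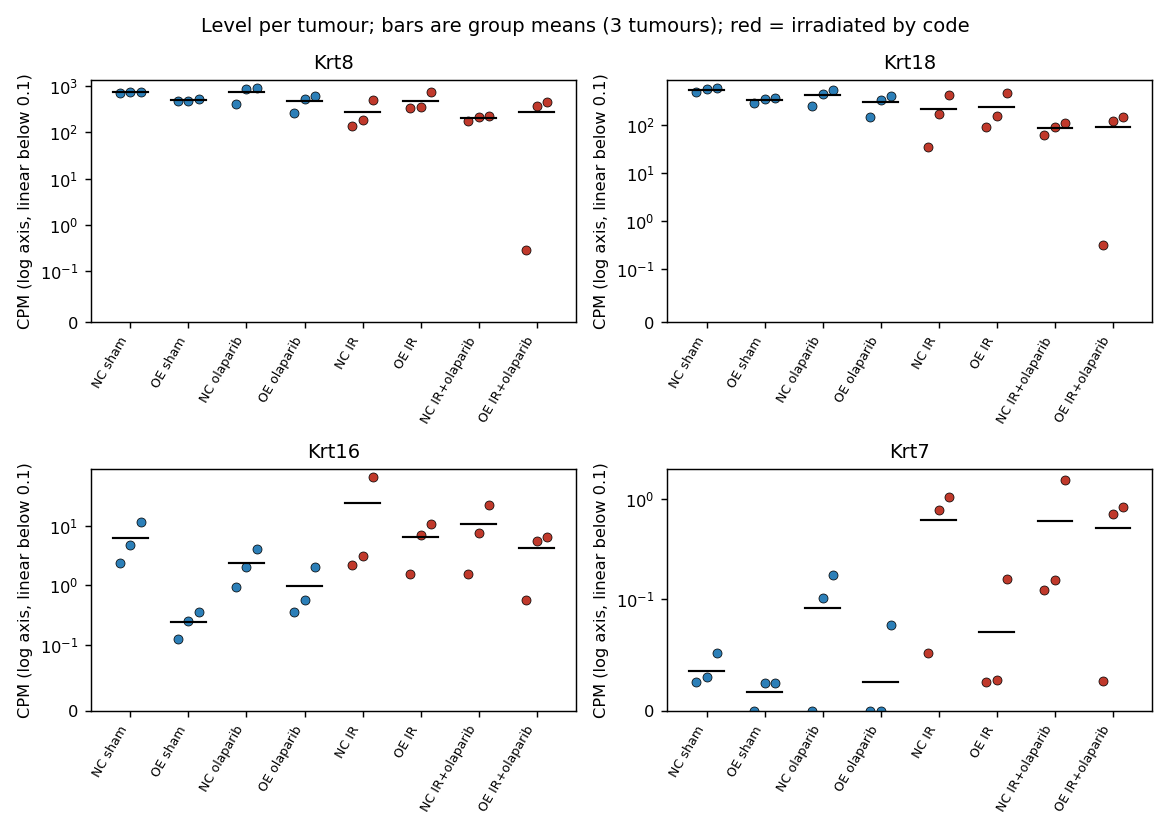
Level of Krt8, Krt18, Krt16 and Krt7 in each tumour (vertical axis, TMM-scaled CPM on a log scale that is linear below 0.1; 1 point per tumour, blue unirradiated and red irradiated by code, bars for group means of 3). The lowest Krt8 and Krt18 points, 0.285 and 0.317 CPM, are both EIO-744.

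The partners did not keep one ratio. Counts of Krt8 per count of Krt18 ran from 1.24 to 2.06 in the 12 unirradiated tumours (median 1.61) and from 1.12 to 4.03 in the 11 irradiated tumours other than EIO-744 (median 2.38). In 7 of these 11 the ratio was above every unirradiated one. The highest ratios were 4.03 in I-736 and 3.93 in EI-745, and the lowest were 1.12 in I-732 and 1.17 in I-739. This ratio was looked at after the values were seen and carries no test. Krt8 shares 26.9% of its 50-base exon windows with the pseudogene Krt8-ps and Krt18 shares 0.720% of its windows with other genes, so the count of Krt8 depends more on how shared reads were assigned.

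**Figure D3:**
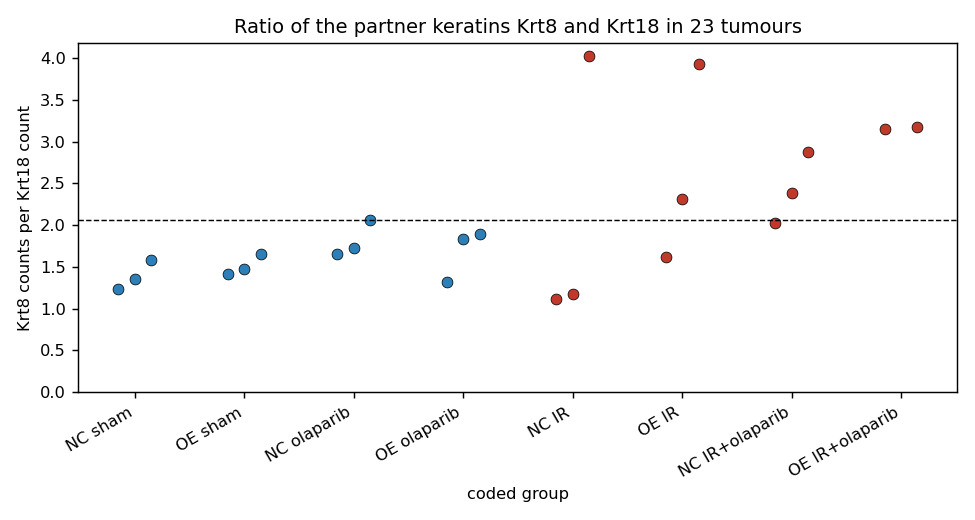
Counts of Krt8 per count of Krt18 (vertical axis) in 23 tumours by coded group, 1 point per tumour, blue unirradiated and red irradiated; EIO-744, with 9 and 10 counts, is left out. The dashed line marks the highest unirradiated ratio, 2.06, and 7 of the 11 irradiated points lie above it.

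The keratins of epidermis (basal, suprabasal, wound and stress) were high together in a few tumours of several groups. They took 91.89% of the keratin counts in EIO-744, 74.4% in I-736, 65.25% in IO-731, 15.98% in S-761 and 6.73% in ES-741, tumours singled out after their values were seen. Of the 21 tested keratins 16 had their highest value in 1 of these 5, and 0 had it in ES-741. That count was largely fixed by the choice, because it includes the epidermal keratins that picked the tumours. Cornified envelope genes, which build the dead outer layer of skin, had summed levels of 250.2, 205.4, 231.6, 56.9 and 29.0 CPM in the same 5 tumours, within a range of 8.44 to 250.2 CPM over all 24. The hair follicle list had 2.60, 8.38, 8.52, 11.2 and 5.05 CPM there, within a range of 2.19 to 11.2 CPM. Whether these counts came from tumour cells or from host skin was not tested.

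**Figure D4:**
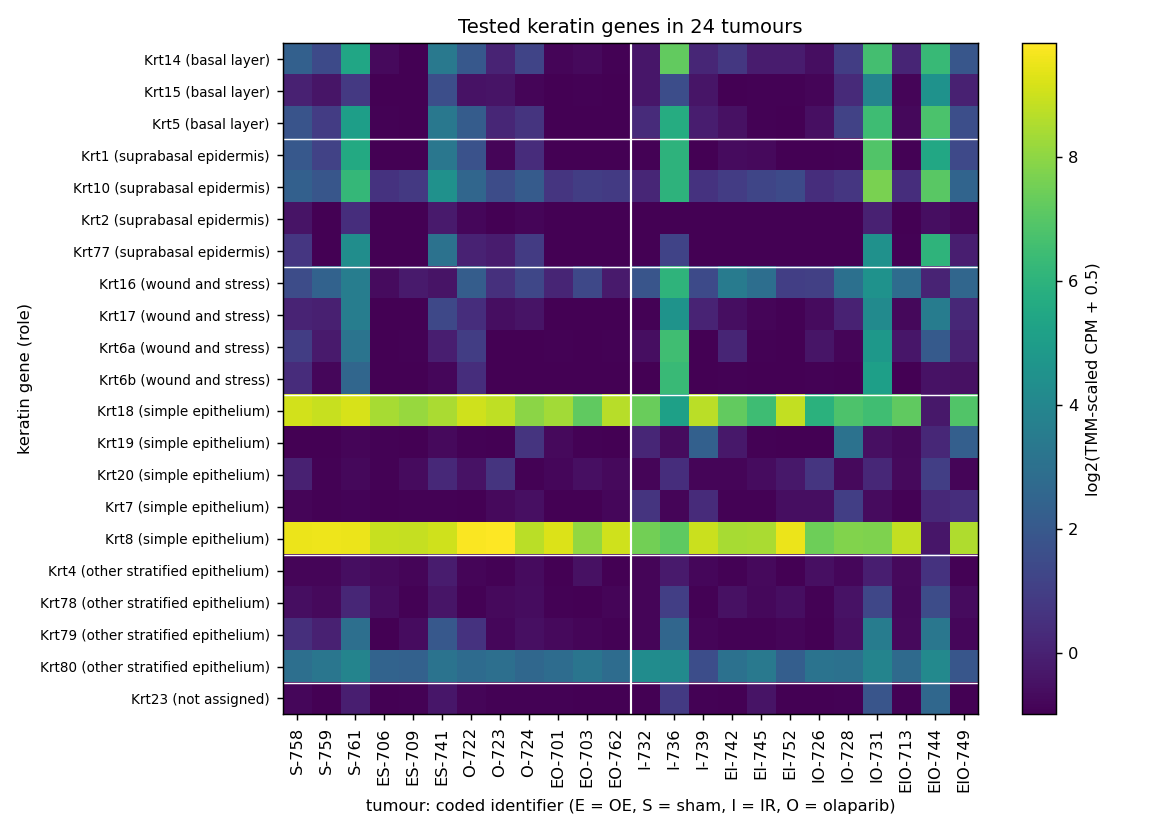
Level of the 21 tested keratins (rows, by role) in 24 tumours (columns by coded group, irradiated to the right of the vertical line), as log2 of TMM-scaled CPM plus 0.5. In columns S-761, I-736, IO-731 and EIO-744 the rows Krt14, Krt5, Krt1 and Krt10 are bright while Krt2 is dark, and EIO-744 is dark at Krt8 and Krt18.

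Krt14, the type I keratin of basal cells, stood at 4.53, 2.20 and 41.7 CPM in NC sham and 0.0996, 0 and 9.78 CPM in OE sham. Levels were 3.44, 0.544 and 1.85 CPM in NC olaparib and 0.050, 0.0993 and 0.0257 CPM in OE olaparib. Irradiated NC tumours had 0.298, 149 and 0.620 CPM without and 0.155, 1.47 and 97.8 CPM with olaparib. In each of these NC groups 1 tumour held nearly all of the signal. Irradiated OE tumours had 1.18, 0.386 and 0.396 CPM without and 0.583, 78.0 and 3.25 CPM with olaparib.

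Its partner Krt5 had 3.02, 1.42 and 33.0 CPM in NC sham, 0.0249, 0 and 9.50 CPM in OE sham, 3.96, 0.622 and 1.04 CPM in NC olaparib and 0 in all 3 OE olaparib tumours. After radiation Krt5 stood at 0.758, 51.7 and 0.405 CPM in NC and 0.205, 0.0275 and 0 CPM in OE. With olaparib added it stood at 0.180, 1.67 and 89.2 CPM in NC and 0.0796, 107 and 2.56 CPM in OE, so the same tumours were high as for Krt14. Krt15, another basal keratin, peaked at 22.3 CPM in EIO-744 and had a median of 0.228 CPM.

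With all 24 tumours no basal keratin passed the test for radiation. Krt14 was called higher in 7 of 24 fits that left out 1 tumour, and Krt15 in 1. The fitted log2 fold changes of Krt14 (3.04 ± 1.23, edgeR adjusted p = 0.0560) and Krt15 (2.37 ± 1.39, adjusted p = 0.183) followed the group means, which 1 tumour each could set. Without EIO-744 they were 2.08 ± 1.19 (edgeR adjusted p = 0.175) and 1.17 ± 1.19 (adjusted p = 0.460). The median of Krt14 was 0.901 CPM in irradiated and 1.2 CPM in unirradiated tumours, the other direction, and its fitted change ranged from 1.37 to 4.52 when 1 tumour was left out. Krt5 was at 0 in 1 whole group, so no fitted fold change is given, and its medians were 0.582 CPM irradiated and 0.829 CPM unirradiated.

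The suprabasal keratins, made as cells leave the basal layer, followed the same tumours. Krt10 had counts in all 24 tumours, with a median of 2.04 CPM. It stood at 4.56, 3.21 and 74.2 CPM in NC sham, 0.996, 1.25 and 22.2 CPM in OE sham, 5.55, 2.36 and 3.80 CPM in NC olaparib and 1.10, 1.44 and 1.31 CPM in OE olaparib. Apart from S-761 and ES-741, these levels did not exceed 5.55 CPM. Radiation gave 0.623, 64.2 and 1.00 CPM in NC and 1.39, 1.87 and 2.22 CPM in OE, and radiation with olaparib 0.851, 1.16 and 199 CPM in NC and 0.849, 133 and 5.21 CPM in OE. Krt10 did not pass the test for radiation (log2 fold change 1.70 ± 0.98, edgeR adjusted p = 0.173). Without EIO-744 its change was 0.71 ± 0.90 (edgeR adjusted p = 0.562), and leaving out 1 tumour at a time gave 0.19 to 2.40. Its median was lower in irradiated (1.63 CPM) than in unirradiated tumours (2.78 CPM).

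Krt1, the partner of Krt10, ran from 0 to 47.9 CPM in unirradiated tumours (median 0.433, 5 of 12 at 0) and from 0 to 117 CPM in irradiated ones (median 0.0686, 3 of 12 at 0). Its highest levels were 117 CPM in IO-731, 63.6 CPM in I-736, 47.9 CPM in S-761 and 44.4 CPM in EIO-744. Krt77, another keratin of skin, was highest in EIO-744 (66.5 CPM) and at 0 in 13 of 24 tumours. Krt2, a late suprabasal keratin, did not exceed 0.856 CPM. These 3 genes were at 0 in at least 1 whole group, so no fitted fold change is given, and none passed the test.

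Krt16, a type I keratin of wounded and hyperproliferative epidermis, was higher in irradiated tumours. Its levels were 2.40, 4.84 and 11.6 CPM in NC sham, 0.124, 0.351 and 0.249 CPM in OE sham, 4.04, 0.933 and 2.00 CPM in NC olaparib and 0.575, 2.04 and 0.360 CPM in OE olaparib. After radiation they were 3.14, 65.8 and 2.22 CPM in NC and 10.8, 7.05 and 1.53 CPM in OE, and with olaparib added 1.57, 7.59 and 22.6 CPM in NC and 6.58, 0.570 and 5.43 CPM in OE. The irradiated median was 6.00 CPM and the unirradiated median 1.47 CPM, and 11 of 12 irradiated tumours lay above the latter although 2 of 12 exceeded every unirradiated tumour. Averaged over strata the log2 fold change was 2.73 ± 0.63 (SE, edgeR adjusted p = 0.00303), and it was called in each of 24 fits that left out 1 tumour. EIO-744, rich in other epidermal keratins, had 0.570 CPM of Krt16, against 22.6 and 65.8 CPM in IO-731 and I-736. Krt16 shares 37.6% of its 50-base exon windows with other genes, 25.2% with Gm11597, so its count is uncertain to that extent.

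Krt6a, a type II partner of Krt16, stood at 1.46, 0.362 and 8.37 CPM in NC sham, 0, 0.0251 and 0.448 CPM in OE sham, 1.46, 0 and 0 CPM in NC olaparib and 0.0250, 0 and 0.0257 CPM in OE olaparib. With radiation it stood at 0.163, 90.0 and 0 CPM in NC and 0.591, 0.0275 and 0 CPM in OE, and with both treatments at 0.258, 0.0515 and 26.9 CPM in NC and 0.292, 3.67 and 0.496 CPM in OE. I-736 and IO-731 exceeded every unirradiated tumour, and 9 of 12 irradiated against 5 of 12 unirradiated tumours had more than 1 count. The gene was called higher with radiation (log2 fold change 3.49 ± 1.33, edgeR adjusted p = 0.0442) but kept the call in 11 of 24 fits without 1 tumour, and without EIO-744 had 3.01 ± 1.36 (adjusted p = 0.0893). Krt6b, its near copy, peaked at 80.4 CPM in I-736 and was at 0 in 13 tumours, and Krt17 peaked at 23.3 CPM in the same tumour. Krt6a shares 45.5% and Krt6b 50.1% of 50-base exon windows with other genes, mostly each other, so their counts cannot be fully separated.

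Krt7 and Krt19, keratins of ducts and glands, were low everywhere and higher with radiation. Krt7 had 0 to 0.173 CPM in unirradiated tumours and 0.0257 to 1.52 CPM in irradiated ones. In counts these were 0 to 7 unirradiated and 1 to 59 irradiated, with more than 1 count in 4 and 9 of 12 tumours. Of 12 irradiated tumours 5 exceeded every unirradiated one. Those 5 were IO-728 (1.52 CPM), I-732 (1.03 CPM), EIO-749 (0.819 CPM), I-739 (0.763 CPM) and EIO-744 (0.697 CPM). The log2 fold change was 3.17 ± 0.75 (SE, edgeR adjusted p = 0.00353), called in each of 24 fits without 1 tumour. No unirradiated tumour reached 10 counts of Krt7, and 5 irradiated ones did. Krt7 thus passed the low-count filter only through irradiated tumours, where it was high, which limits what its call can show.

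Krt19 stood at 0, 0 and 0.0611 CPM in NC sham, 0.0249, 0 and 0.0995 CPM in OE sham, 0.0248, 0 and 1.06 CPM in NC olaparib and 0.10, 0.0248 and 0 CPM in OE olaparib. Irradiated NC tumours had 0.623, 0.130 and 4.58 CPM without and 0, 7.90 and 0.174 CPM with olaparib, and irradiated OE tumours 0.308, 0.0275 and 0 CPM without and 0.0796, 0.665 and 4.34 CPM with olaparib. The groups overlapped, since 3 of 12 irradiated tumours exceeded every unirradiated one. At least 10 counts were reached in 6 irradiated tumours and 1 unirradiated one, so the entry of Krt19 to the test also depended on irradiated tumours. With radiation it rose by 3.96 ± 1.12 on the log2 scale (edgeR adjusted p = 0.0104), and the call was lost in 1 of 24 fits, that without EI-742, where the change was 3.28. The 3 highest Krt19 tumours, IO-728, I-739 and EIO-749, had epidermal keratins at 3.62%, 0.544% and 4.01% of keratin counts, so they were not the tumours rich in epidermal keratins. The summed level of 7 adipocyte genes was 586, 466.5 and 124 CPM in them, against 44.8 to 329 CPM in unirradiated tumours, and its part in the result was not tested. Krt20, a keratin of gut and bladder epithelium, peaked at 1.52 CPM in EIO-744 and did not pass the test (0.65 ± 0.72, adjusted p = 0.496, and -0.06 ± 0.65 without that tumour).

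Among the other keratins, Krt80, found in many stratified epithelia, had counts in every tumour. It ran from 4.72 to 14.3 CPM in unirradiated and from 2.46 to 18.9 CPM in irradiated tumours (log2 fold change 0.39 ± 0.29, edgeR adjusted p = 0.305). Krt78 was called higher with radiation (2.20 ± 0.79, edgeR adjusted p = 0.0348), with medians of 0.141 and 0.104 CPM in irradiated and unirradiated tumours and 3 irradiated tumours above all others: EIO-744 at 2.38 CPM, IO-731 at 1.99 CPM and I-736 at 1.54 CPM. Without EIO-744 its change was 1.43 ± 0.73 (adjusted p = 0.133), and the call was kept in 13 of 24 fits that left out 1 tumour. Krt23 was called higher (3.29 ± 1.25, edgeR adjusted p = 0.0440) on the same 3 tumours, at 5.67, 3.09 and 1.27 CPM, while 5 of 12 irradiated tumours had no count. Without EIO-744 it had 1.56 ± 1.49 (adjusted p = 0.431), and the call was kept in 10 of 24 such fits. Krt4 and Krt79 did not pass the test, at 0.79 ± 0.70 (adjusted p = 0.387) and 0.81 ± 1.19 (adjusted p = 0.612), and at 0.17 ± 0.68 and -0.46 ± 1.10 without EIO-744. Krt80 then had 0.15 ± 0.26. Krt42, a keratin with 76 counts in all, was filtered out of the main fit. Only 2 tumours reached 10 counts, EI-742 with 22 and IO-731 with 11, both irradiated. With 1 tumour left out the filter asks for fewer such tumours, and Krt42 then entered and was called higher in 22 of 24 fits. Those calls carry no weight, because Krt42 entered through the 2 tumours where it was highest. Its irradiated tumours ran from 0 to 0.565 CPM and its unirradiated ones from 0 to 0.0495 CPM. Krt222, with 120 counts in all, was likewise outside the main fit and was called in 7 of 24 such fits. Only 2 tumours reached 10 counts of it, EIO-744 with 49 and EI-752 with 10, both irradiated, so those calls carry no weight either.

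In all, radiation averaged over 4 strata called 7 of 21 tested keratins (33.3%), 6 higher and 1 lower, where 39.1% of all 16560 genes were called, 21.7% higher and 17.5% lower. The share called was thus near that of all genes. The median log2 fold change was 2.37 over the tested keratins and 0.0407 over all tested genes, and 1.5 and 0.00973 without EIO-744. Over the 15 keratins with a count in every group it was 2.20, and 1.17 without that tumour. The value of 2.37 includes keratins with a group at 0, whose fitted changes are not given above. Both sets include Krt4, Krt7, Krt19, Krt23 and Krt78, whose entry to the main fit depended on irradiated tumours. The last 4 of these are among the 6 called higher. These medians are thus no separate evidence of a rise with radiation. The fit compares group means: for Krt14, Krt10, Krt79 and Krt23, the last of them called higher, its change was above 0 while the median over irradiated tumours was below that over unirradiated ones. The medians of Krt1, Krt5 and Krt77, which have a group at 0, were also lower in irradiated tumours. For Krt23 they were 0.0248 and 0.0251 CPM. Without EIO-744 the calls were Krt16, Krt7, Krt19 and Krt42 higher and Krt8 and Krt18 lower. They were 27.3% of 22 tested keratins, beside 36.9% of all 16893 genes in that fit. Krt42 entered that fit only because 1 tumour was left out. With 1 tumour left out, the number of keratins called ran from 3 (without IO-731, 34% of all genes) to 11 (without ES-741, 35.5%). It was 4 without EI-742 and 4 without EO-701, beside 32.2% and 33.2% of all genes. Grouped by the written labels, 0 keratins were called in this comparison, and 0.00604% of all genes were. At an unadjusted p below 0.05 there were 3 keratins and 30.8% of all genes. Under those labels Krt16 had 0.67 ± 0.75 (edgeR adjusted p = 0.557) and Krt18 -1.11 ± 0.54 (adjusted p = 0.167).

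**Figure D5:**
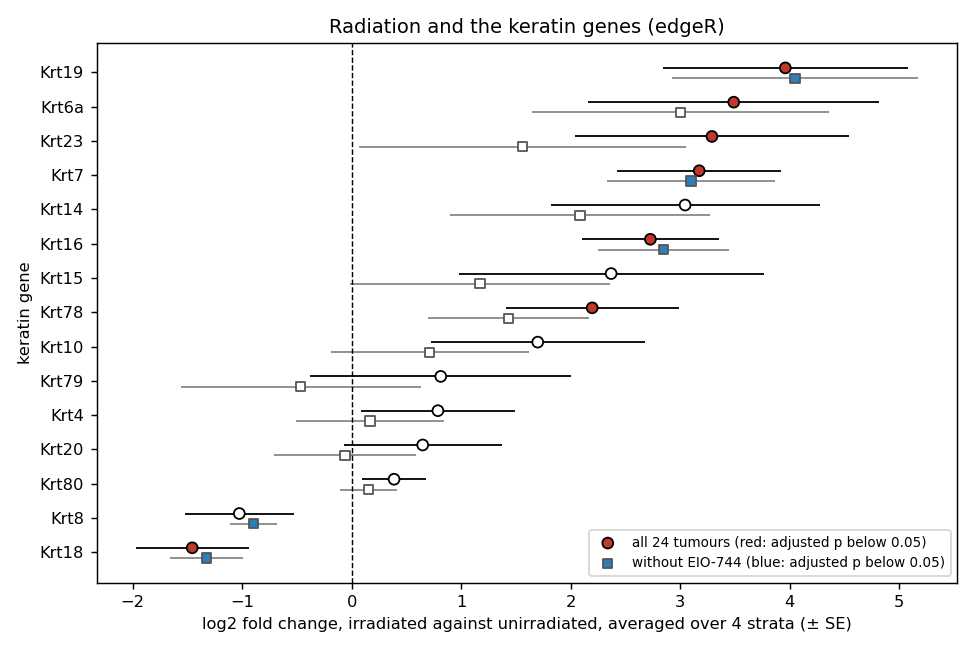
Log2 fold change with radiation averaged over 4 strata (horizontal axis, bars are ± 1 SE) for the 15 tested keratins with a count in every group, from all 24 tumours (circles) and without EIO-744 (squares); filled symbols passed an edgeR adjusted p of 0.05. Krt16, Krt7, Krt19 and Krt18 are filled in both fits, Krt8 only without that tumour, and Krt6a, Krt23 and Krt78 only with it.

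Within single strata no keratin was called by edgeR. Radiation in NC without olaparib called 10% of all genes, and 3 of 21 keratins had an unadjusted p below 0.05, beside 29.6% of all genes. DESeq2 called 2, Krt7 and Krt19, beside 17.4% of all genes. Without EIO-744 edgeR called 1, Krt8, beside 22.8% of all genes. With all 24 tumours, Krt7 differed by 3.96 ± 1.47 on the log2 scale (edgeR adjusted p = 0.0833). Radiation in OE called 0.248% of all genes, with 2 of 21 keratins and 14.8% of all genes at an unadjusted p below 0.05. Krt16 had 4.72 ± 1.40 (edgeR adjusted p = 0.125), and DESeq2 called it, beside 3.89% of all genes. All 3 OE IR tumours had more Krt16 than all 3 OE sham tumours. Radiation under olaparib called 1.46% of genes in NC, with 2 of 21 keratins and 22.1% of all genes at an unadjusted p below 0.05 and no keratin by DESeq2. Krt18 and Krt8 were called lower in a fit of those 6 tumours alone, beside 14.6% of all genes. They were also called lower in the full fit without EIO-744, beside 10.3% of all genes. In OE, radiation under olaparib called 6.78% of genes by edgeR, with 12 of 21 keratins, all higher, and 28.3% of all genes at an unadjusted p below 0.05. DESeq2 called 3 of 21 keratins there (Krt15, Krt7, Krt78), beside 14.5% of all genes, so the share was near that of all genes. Without EIO-744, which leaves 2 tumours in its group, edgeR called 0 keratins and 0.959% of genes. At an unadjusted p below 0.05 there were then 4 of 22 keratins and 13.8% of genes.

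OE and NC tumours were compared to ask whether miR-21-5p overexpression altered the keratins. Averaged over the 4 treatments 0 of 21 keratins and 0.453% of all genes were called by edgeR. At an unadjusted p below 0.05 there were 8 keratins, all lower in OE, and 15.5% of all genes. DESeq2 called Krt16, beside 3.79% of all genes. Krt16 had medians of 1.05 CPM in OE and 3.59 CPM in NC, and its log2 difference was -2.28 ± 0.62 (edgeR adjusted p = 0.0940). In sham tumours its 3 OE values (0.124 to 0.351 CPM) lay below its 3 NC values (2.40 to 11.6 CPM), a log2 difference of -4.68 ± 1.40 (edgeR adjusted p = 0.172). That sham comparison called 0 keratins and 0% of all genes, with 1 keratin and 12.5% of genes at an unadjusted p below 0.05. DESeq2 called 1 keratin in it, beside 2.27% of all genes. Krt6a had medians of 0.0266 CPM in OE and 0.310 CPM in NC (-4.70 ± 1.35, edgeR adjusted p = 0.109) and Krt14 had 0.391 and 2.02 CPM (-3.45 ± 1.23, adjusted p = 0.192). Without EIO-744, 4 keratins were called lower in OE by edgeR (Krt16, Krt5, Krt6a and Krt6b, beside 4.96% of all genes). At an unadjusted p below 0.05 that fit had 14 of 22 keratins, all lower, and 24.6% of all genes. Without I-739, 3 keratins were called lower (Krt16, Krt6a and Krt6b, beside 2.38%). Krt5 and Krt6b were at 0 in the whole OE olaparib group, so no fitted difference is given for them. Krt8 and Krt18 had log2 fold changes of 0.00 ± 0.49 and -0.25 ± 0.50 between OE and NC (adjusted p = 1 and 0.856), and both changed sign under some alternatives.

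Olaparib averaged over strata called 0 keratins and 0% of all genes, with 0 keratins and 7.67% of genes at an unadjusted p below 0.05 and 0 keratins by DESeq2. The radiation change in OE less that in NC called 0 keratins and 0.00604% of genes, with 0 keratins and 11.4% of genes at an unadjusted p below 0.05 and 0 keratins by DESeq2. Without EIO-744 it called 3.51% of all genes and, of the keratins, Krt8, which then fell with radiation in NC and changed little in OE. The Krt8 change was -1.47 ± 0.41 in NC and -0.05 ± 0.41 in OE, and under olaparib -1.88 ± 0.42 and -0.18 ± 0.46. The radiation effect with olaparib minus that without called 0 keratins and 0% of genes by edgeR. DESeq2 called Krt15, beside 0.0423% of genes. At an unadjusted edgeR p below 0.05 the contrast had 11 keratins, all higher, and 3.55% of genes. Without EIO-744 it had 7 of 22 keratins and 3.60% of genes at that threshold. In that contrast Krt10 had 5.87 ± 2.03 and Krt14 6.78 ± 2.46 (edgeR adjusted p = 0.987 for both), with IO-731 and EIO-744 as the high tumours of the groups given both treatments. High levels in the sham tumours S-761 (Krt10 at 74.2 CPM) and ES-741 (22.2 CPM) also raise this contrast, and I-736 (64.2 CPM) lowers it. Epidermal keratins were high in the same few tumours, so they are not separate evidence. Without EIO-744 the Krt10 and Krt14 values were 3.91 ± 1.83 and 4.87 ± 2.36 (edgeR adjusted p = 1 for both).

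Levels of 6 of 7 textbook partner pairs were correlated across the 24 tumours, Krt6a with Krt16 and Krt7 with Krt19 not in every setting. Values were log2(CPM + 0.5), with two-sided permutation tests of 100000 draws adjusted over 7 pairs. Pairs of keratins that are not partners were not computed. Keratins of different pairs were high in the same tumours, so a tie particular to partners is not shown. Krt5 and Krt14 had a Pearson r of 0.980 (p = 1e-05, adjusted 2.33e-05) and a Spearman rho of 0.944 (p = 1e-05, adjusted 1.75e-05), where 1e-05 is the smallest permutation p these draws give. Without the 2 tumours farthest from the median of Krt5, r was 0.972, and it was 0.975 in the 12 irradiated and 0.993 in the 12 unirradiated tumours. Krt1 and Krt10 had r = 0.981 and rho = 0.842 (permutation p = 1e-05 for both, adjusted 2.33e-05 and 1.75e-05), and r = 0.972 without the 2 farthest. Krt8 and Krt18 had r = 0.960 and rho = 0.915 (permutation p = 1e-05 for both, adjusted 2.33e-05 and 1.75e-05), r = 0.884 without the 2 farthest and r = 0.907 without EIO-744. The tie between Krt6a and Krt16 was looser, at r = 0.684 (permutation p = 0.00031, adjusted 0.000362) and rho = 0.570 (p = 0.00407, adjusted 0.00570), and it rested on the 2 farthest tumours, without which r was 0.317. Krt6b and Krt17 had r = 0.844 (permutation p = 3e-05, adjusted 4.2e-05) and rho = 0.816 (p = 1e-05, adjusted 1.75e-05), with r = 0.701 without the 2 farthest. Krt7 and Krt19 had r = 0.863 (permutation p = 3e-05, adjusted 4.2e-05) and rho = 0.456 (p = 0.0272, adjusted 0.0317), with r = 0.865 without the 2 farthest but 0.672 in unirradiated tumours (adjusted permutation p = 0.0911). Its rho did not hold: it was 0.302 (adjusted permutation p = 0.172) without the 2 farthest, 0.386 (adjusted 0.0806) without EIO-744 and -0.236 (adjusted 0.527) in unirradiated tumours. Krt4 and Krt13, with 2 counts of Krt13 in all, had r = 0.0443 (permutation p = 0.888) and rho = 0.241 (p = 0.283).

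Genes that anchor or control keratins were read beside them, in the averaged radiation comparison. There 21.7% of all genes were called higher and 17.5% lower, and 17.8% and 19.1% without EIO-744. Of 17 desmosome and plakin genes, which tie keratin filaments to cell junctions, 4 were higher and 0 lower with radiation: Dsg2 (log2 fold change 2.50 ± 0.71, edgeR adjusted p = 0.0106), Evpl (1.16 ± 0.35), Ppl (1.2 ± 0.37) and Eppk1 (1.88 ± 0.60). That is near the share of all genes called higher, and the median over the list was 1.39. Of 18 epithelial transcription factors 7 were higher and 1 lower, led by Zfp750, a factor of epidermal differentiation (3.23 ± 0.71, edgeR adjusted p = 0.00220), Notch3 (1.34 ± 0.36) and Grhl2 (1.17 ± 0.34), with Gata3 lower (-0.50 ± 0.16). Without EIO-744 the counts were 5 and 0 for the first list and 3 and 2 for the second. Cdh1 (1.27 ± 0.36), Cldn4 (3.57 ± 1.02) and Epcam (1.5 ± 0.52) were the 3 of 11 epithelial identity genes called higher, with 0 lower, and without that tumour 3 of 12 were higher and 1 lower. Mean levels in unirradiated and irradiated tumours were 0.080 and 0.319 CPM for Eppk1, 0.185 and 0.854 for Dsg2, and 0.127 and 0.761 for Cldn4. At such levels entry to the test can depend on irradiated tumours, as it did for Krt7, which limits these calls.

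Of 15 cornified envelope genes 4 were higher and 0 lower, among them Sbsn (2.16 ± 0.54, edgeR adjusted p = 0.00542), Cdsn (2.00 ± 0.56) and Tgm3 (2.99 ± 0.86), and 4 were higher without EIO-744, also near the share of all genes. Of 14 other intermediate filament genes 3 were higher and 4 lower. Lmnb1, a lamin of the nuclear envelope, moved by -1.40 ± 0.23 (edgeR adjusted p = 0.000256), from 129 ± 18.8 CPM (SD, n = 12) in unirradiated to 49.5 ± 26.5 CPM (SD, n = 12) in irradiated tumours. Lmnb2 moved by -0.81 ± 0.18 and Bfsp2 by 2.26 ± 0.47. Of 6 hair follicle genes 2 were higher, Tchh (2.26 ± 0.50) and Padi3 (1.09 ± 0.33). Tgm3 and Tchh were also low, with means of 0.0481 and 0.12 CPM in unirradiated and 0.276 and 0.49 CPM in irradiated tumours. The same limit from the low-count filter applies to their calls. Among lists of other cell types, radiation moved 10 of 15 skeletal muscle genes higher (Neb 2.65 ± 0.87, Ttn 1.63 ± 0.54, Myh1 2.23 ± 0.76) and 0 of 15 without EIO-744. It moved 4 of 10 fibroblast genes higher (Dcn 1.85 ± 0.33, Lum 2.30 ± 0.61, Postn 1.56 ± 0.47) and, without that tumour, 2 higher and 2 lower. Of 7 adipocyte genes 3 were higher (Cidec 2.63 ± 0.79, Cfd 2.51 ± 0.73, Adipoq 2.24 ± 0.77), and 2 without it. Neutrophil genes were higher in 6 of 6, and in 5 without that tumour. T cell genes were lower in 5 of 8, and in 6 without it. Endothelial genes were higher in 2 of 7, and without it 1 was higher and 2 were lower. The part of these cell types in the keratin values was not tested.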

How the data were processed

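RNA from whole tumours was sequenced and, per the submitters' processing notes, trimmed, aligned and counted with fastp, HISAT2 and HTSeq on mm10. Versions, annotation, strand and multi-mapping settings are not given in the sources used here. The authors deposited raw counts per gene, without normalization. No pair of replicates was a copy (chi-square per gene at least 13.0 over 24 pairs). Reads carried no molecular identifiers and can repeat a molecule, so precision is judged from replicate tumours.

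Counts were tested with edgeR 4.0.16 in R 4.3.3 (quasi-likelihood F-test, TMM scaling, filterByExpr, 8 coded groups), with Benjamini-Hochberg adjustment over 16560 genes and calls at an adjusted p below 0.05. Averages are over 4 strata. Levels are TMM-scaled CPM (counts per 1000000). Alternatives were DESeq2 1.42.0, its size factors, no filter, the written labels, leaving out each tumour, and leaving out 3 tumours of unlike composition. Those 3 were I-732, EIO-744 and S-761, while I-736 and IO-731, rich in epidermal keratins, stayed in. Fits of the 14 other gene lists, and of the partner pairs, without EIO-744 were added after seeing the data. The steps were tested on simulated counts for 16323 genes, where the averaged radiation contrast recovered 67.7% of 2-fold and 80.6% of 4-fold changes. Radiation in NC, a single stratum, recovered 31.3% and 61.2%. The simulated counts held no outlying tumour, unlike the epidermal keratins, so recovery for those may differ.

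The keratins and all gene lists were chosen with earlier results of these data known. Per-tumour or ranged values are given for tested keratins of basal, suprabasal, wound, simple and mucosal type and any other called in an averaged contrast, and up to 3 genes of each other list by smallest p, with Cdkn1a and Mki67 as checks. Genes named beyond that rule were chosen after their values were seen. Exon lengths and shared 50-base windows came from GENCODE M21, positions and 5′ ends from RefSeq on GRCm38.p6.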

Additional observations from a re-analysis of the deposited data

How the results depend on the processing

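No paired analysis was possible because the groups share no animal number. Grouped by the written labels, radiation averaged called 0 keratins and 0.00604% of all genes. Of the named changes 4 then reversed: Krt16 with radiation in OE to -0.51, Krt7 and Krt19 with radiation in NC to -0.98 and -4.01, and Krt18 for OE minus NC averaged to 0.19. The DESeq2 test called 1 keratin for OE minus NC averaged (3.79% of all genes) and 1 for OE minus NC in sham (2.27%). For the radiation effect with olaparib minus without it called 1 (0.0423%). It called 2 for radiation in NC (17.4%), 1 for radiation in OE (3.89%) and 3 for radiation under olaparib in OE (14.5%). Its size factors in edgeR called 1 in the last (7.36%). Without the 3 tumours of unlike composition the counts were 3 for OE minus NC averaged (4.99% of all genes) and 1 for radiation in OE (6.52%). Radiation under olaparib in NC then called 2 (16.2%), and Krt20 turned to -0.023. Fits of 6 tumours alone called 1 for radiation in OE (14.4% of all genes) and 2 for radiation under olaparib in NC (14.6%). Leaving out 1 tumour gave 3 to 11 calls for radiation averaged (34% of all genes at 3 and 35.5% at 11). It gave 0 to 4 for OE minus NC averaged (4.96% at 4) and 0 to 1 for radiation in NC (22.8% at 1). Radiation under olaparib had 0 to 2 in NC (10.3% at 2) and 0 to 4 in OE (4 without EIO-749, 18.8%). The radiation effect in OE minus in NC had 0 to 1 (3.51% at 1). Leaving out 1 tumour moved Krt20 with radiation averaged between -0.060 (reversed, without EIO-744) and 1.10, and Krt79 between -0.51 and 1.79. Krt79 reversed to -0.46 without EIO-744, -0.51 without IO-731 and -0.46 without I-736. For OE minus NC averaged, Krt18 ran from -0.48 to 0.016 (reversed without I-739) and Krt8 from -0.12 to 0.20, with a sign that changed in 9 of 24 fits. The cause of these changes was not tested. Of 818 alternative values for single genes, pairs and lists, 711 kept direction and side of the threshold, 61 lost the call, 23 gained one, 19 reversed and 4 counts moved by over 1.5 times. Depth limits Krt7, Krt19, Krt23 and Krt78, which rest on few counts in most tumours. At least 10 counts were reached in 5 irradiated and 0 unirradiated tumours for Krt7 and in 6 and 1 for Krt19. For Krt23 and for Krt78 these were 3 and 2. Entry of these 4 genes to the main fit thus depended on irradiated tumours.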
